A study of Homo sapiens with 24 samples.

Results

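The genes described here encode enzymes that make, elongate and desaturate fatty acids, together with the transcription factor that controls them. The list of 10 genes comprised SCD, FASN, ACACA, ACLY, ELOVL6, FADS1, FADS2, ACSS2, SREBF1 and ME1. For each gene the probe set with the highest mean over all 24 arrays was taken, and 9 of the 10 genes had a probe set annotated to that gene alone, out of 19775 genes measured in the series. FADS1, the delta-5 desaturase, had only probe sets annotated jointly to FADS1 and the microRNA gene MIR1908, and those are described separately.

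Fatty acid synthesis starts in the cytosol, where ACLY splits exported citrate into acetyl-CoA and ACSS2 makes acetyl-CoA from acetate. ACACA carboxylates acetyl-CoA to malonyl-CoA, the committed step, and FASN builds palmitate from it with reducing power that ME1, the cytosolic malic enzyme, helps to supply as NADPH. ELOVL6 lengthens palmitate, SCD introduces the first double bond into saturated acyl chains, and FADS2 and FADS1 desaturate polyunsaturated fatty acids. SREBF1 encodes SREBP-1, a membrane-bound transcription factor that is cleaved and moves to the nucleus, where it induces most of these genes. Growth factor receptors that signal through AKT are known to raise SREBP-1 activity in tumour cells.

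The cells were RT112, an established human bladder cancer line that is known to carry a fusion of FGFR3, a receptor tyrosine kinase, with TACC3, a mitotic spindle gene. All groups carried a transduced doxycycline-inducible short hairpin RNA and were grown in medium with 1% serum for 48 h. Lines carried FGFR3 hairpin 2-4, 4-1 or 6-16, and the control line carried a hairpin against EGFP, each with 1 µg/ml doxycycline or without it, which gave 8 labelled groups of 3 arrays. The labels say neither whether a line was 1 clone nor whether the replicates were separate cultures, so p-values measure only the spread between these arrays. The measurement was the log2 expression value of Affymetrix arrays, on which no depth exists and the number of arrays limits the precision.

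The targeted gene was not called lower with doxycycline in any line, and every group below is named by its label only. Whether each array's label matches its values was not tested. For the brighter FGFR3 probe set and TACC3 the log2 changes by limma were 0.15 and 0.28 in the line labelled 2-4, -0.24 and 0.32 in 4-1, 0.42 and -0.71 in 6-16 and 0.16 and 0.19 in EGFP, with adjusted p between 0.735 and 1. A second, dimmer FGFR3 probe set gave the other sign in the 4-1 and 6-16 lines and the same sign in 2-4 and EGFP. In the 6-16 line it had 10.47, 8.91 and 10.84 with doxycycline against 11.03, 10.48 and 11.20 without it, so the groups overlapped, with a change of -0.83 (SE 0.62, limma adjusted p 0.717 over all 54675 probe sets). Its changes were 0.17 in 2-4, 0.29 in 4-1 and 0.44 in EGFP (limma adjusted p 0.958 to 1). Arrays with near-equal values carried different labels, so the members are also described by the level of TACC3 on each array, below or above 11.6 on the log2 scale. The nearest arrays to this cut had TACC3 values of 11.43 below it and 11.82 above it. It put 9 arrays below and 15 above. Below lay 4 of the 12 arrays labelled with doxycycline and 5 of the 12 labelled without it, from all 4 lines. This division rests on a measured value and is not a treatment group of the study, so values by TACC3 level are descriptions without a test. Epithelial markers were high on all arrays, from KRT18 at a mean of 13.83 to UPK2 at 9.05, while the mean level of leukocyte markers was 6.63 to 6.96 and that of adipocyte markers 6.35 to 6.63.

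The regions upstream of 4 members are shown because these genes differ in how far their levels differed by TACC3 level: SCD showed the widest difference, ACLY and ME1 separated completely, and SREBF1 overlapped. Each is the 250 bases before a RefSeq transcription start in GRCh38.p14, 5′ to 3′ on the strand of the gene. Capitals mark the NF-Y box CCAAT and the GC box GGGCGG, read on both strands.
SCD, chr10:100346983-100347232, plus strand: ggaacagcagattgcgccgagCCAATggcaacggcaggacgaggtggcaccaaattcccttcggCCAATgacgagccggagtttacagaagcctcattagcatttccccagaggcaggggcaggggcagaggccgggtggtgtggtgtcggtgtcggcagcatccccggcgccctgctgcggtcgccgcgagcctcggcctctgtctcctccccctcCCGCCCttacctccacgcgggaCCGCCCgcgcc
ACLY, chr17:41919023-41919272, minus strand: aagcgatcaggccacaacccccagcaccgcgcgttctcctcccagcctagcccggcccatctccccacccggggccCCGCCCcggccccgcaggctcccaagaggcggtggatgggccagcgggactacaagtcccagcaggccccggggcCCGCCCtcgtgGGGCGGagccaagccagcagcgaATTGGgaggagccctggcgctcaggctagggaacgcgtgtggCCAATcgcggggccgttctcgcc
SREBF1, chr17:17836987-17837236, minus strand: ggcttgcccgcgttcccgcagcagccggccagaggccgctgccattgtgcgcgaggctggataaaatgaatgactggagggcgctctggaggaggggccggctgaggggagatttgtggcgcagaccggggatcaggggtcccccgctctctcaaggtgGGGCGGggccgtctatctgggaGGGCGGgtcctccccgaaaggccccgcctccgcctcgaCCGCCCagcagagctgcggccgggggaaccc
ME1, chr6:83431052-83431301, minus strand: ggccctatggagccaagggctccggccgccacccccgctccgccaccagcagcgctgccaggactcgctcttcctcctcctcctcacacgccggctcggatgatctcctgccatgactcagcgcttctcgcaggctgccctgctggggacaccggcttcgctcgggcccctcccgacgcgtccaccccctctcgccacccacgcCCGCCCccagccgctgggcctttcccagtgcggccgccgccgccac

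SCD held 2 NF-Y boxes and 2 GC boxes, and ACLY held 2 and 3. SREBF1 held 3 GC boxes and ME1 1, and neither window held CCAAT. RefSeq windows were found for 9 of the 10 listed genes, 14 windows in all, with none used for FASN. CCAAT stood in 6 of these 14 windows, from 4 genes, and in 32% of the 35116 windows of all genes. GGGCGG stood in 12 of the 14 windows, and in 42.6% of all windows. The sterol regulatory element in the form TCACNCCAC and the E-box CACGTG stood in 0 member windows and in 0.883% and 6.34% of all windows. Other forms of the sterol regulatory element were not searched, so this count does not show that the members lack one. No motif overlapped another kind of motif in the 4 windows shown. These matches describe the letters of the windows and are not evidence of binding.

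The study compared arrays labelled with and without doxycycline in each line to find genes that depend on FGFR3. SCD had log2 levels of 12.99, 11.16 and 12.88 with doxycycline against 13.03, 10.69 and 13.09 without it in the 2-4 line. In the 4-1 line the levels of SCD were 11.13, 12.47 and 13.03 with doxycycline against 10.90, 11.47 and 12.94 without it. In both lines each group held high and low arrays, and the groups overlapped. SCD stood at 12.93, 10.80 and 12.94 with doxycycline and 13.07, 12.56 and 13.03 without it in the 6-16 line. In the EGFP line it stood at 13.04, 12.98 and 11.58 with doxycycline and 11.55, 12.49 and 11.13 without it. The 6-16 arrays with doxycycline thus held 1 low array and those without it none, but the groups overlapped in the 6-16 and EGFP lines alike. By limma the log2 change of SCD was 0.08 in the 2-4 line, 0.44 in 4-1, -0.67 in 6-16 and 0.81 for the EGFP hairpin. Its SE was 0.74 throughout, and none of these passed limma's test (adjusted p 0.999, 1, 0.842 and 0.975). In the 2-4 line the change of SCD was -0.71 without replicate 2 of the arrays lacking doxycycline, and -0.25 or -0.19 without replicate 1 or 3 of those with it. In the 6-16 line it was 0.04 without replicate 2 of the arrays with doxycycline. With 1 array left out its lowest and highest values were 0.01 and 1.03 in 4-1, and 0.51 and 1.29 for EGFP.

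FASN, the fatty acid synthase, showed the same mixture within labels. Its levels were 11.92, 10.37 and 11.69 with doxycycline against 11.61, 10.44 and 12.39 without it in the 2-4 line, and 10.44, 11.47 and 11.58 against 10.69, 10.39 and 11.67 in the 4-1 line. With doxycycline the 6-16 arrays had 11.67, 10.46 and 11.63, and without it 12.30, 11.39 and 12.29. EGFP arrays had 11.82, 11.60 and 10.47 with doxycycline and 10.47, 11.52 and 10.43 without it. Groups overlapped in every line. The changes of FASN were -0.15, 0.25, -0.74 and 0.49 in the 2-4, 4-1, 6-16 and EGFP lines (SE 0.54, limma adjusted p 0.764 to 1). Leaving out replicate 2 with doxycycline or replicate 3 without it turned the 2-4 value to 0.32 or 0.30, and leaving out replicate 2 without doxycycline turned the 4-1 value to -0.02. With 1 array left out its lowest and highest values were -1.04 and -0.34 in 6-16, and 0.23 and 0.91 for EGFP.

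SREBF1, the regulator, had changes of 0.37, 0.16, -0.23 and 0.54 in the same order (SE 0.47, limma adjusted p 0.919 to 1). In the EGFP line its arrays did not overlap, with 11.29, 11.10 and 10.70 with doxycycline against 10.61, 10.41 and 10.43 without it, and the limma adjusted p there was 0.975. Its sign turned in the 2-4 line without replicate 2 lacking doxycycline (-0.16), in the 4-1 line without replicate 1 lacking it (-0.29) or replicate 3 with it (-0.06), and in the 6-16 line without replicate 2 with it (0.31). ACACA did not overlap in the 6-16 line, at 10.19, 9.88 and 10.14 with doxycycline against 10.35, 10.22 and 10.32 without it. Its limma adjusted p there was 0.791. The other members overlapped in every line, and the share of all genes without overlap by label was not counted. Limma called 0 of the 9 members in each line, where it called 0% of the 19775 genes. Among the members, 0 had an unadjusted p under 0.05. Of all genes, 487, 223, 1539 and 505 had such an unadjusted p in the 2-4, 4-1, 6-16 and EGFP lines. Of the 9 members, 3 had a change above 0 in the 2-4 line, 8 in 4-1, 1 in 6-16 and 9 in EGFP. The medians of the members were -0.05, 0.16, -0.33 and 0.50, beside medians over all genes of -0.005, -0.008, 0.028 and 0.023.

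The mean FGFR3 line change minus the EGFP line change tests the difference that the series design asks for. It was below 0 for all 9 members, with a median of -0.49 beside -0.017 over all genes, and limma called 0 members and 0% of genes, with 428 genes at an unadjusted p under 0.05. The contrast shares its EGFP arrays with the EGFP line change, so its sign is not separate from it. SCD had -0.86 (95% interval -2.64 to 0.92). ME1 had -0.73 (95% interval -1.76 to 0.30), FASN -0.71 (-2.01 to 0.60) and ACSS2 -0.59 (-1.53 to 0.35). ELOVL6 had -0.49 (-1.17 to 0.19), SREBF1 -0.44 (-1.57 to 0.68) and ACLY -0.36 (-1.09 to 0.37). ACACA had -0.29 (-0.76 to 0.18) and FADS2 -0.04 (-0.41 to 0.33). Each interval included 0, and each limma adjusted p was 1. Single arrays moved these values by over 1.5 times: with 1 array left out, SCD ran from -1.34 to -0.56, FASN from -1.12 to -0.44, ME1 from -1.13 to -0.53 and ACSS2 from -0.95 to -0.39. When the changes of the 3 FGFR3 lines were set against each other, limma's F-test called 0 members and 0% of genes, with 636 genes at an unadjusted p under 0.05. The SD within labelled groups was 0.98 for SCD, 0.72 for FASN and 0.57 for ME1, no smaller than the SD over all 24 arrays of 0.90, 0.69 and 0.56.

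**Figure D1:**
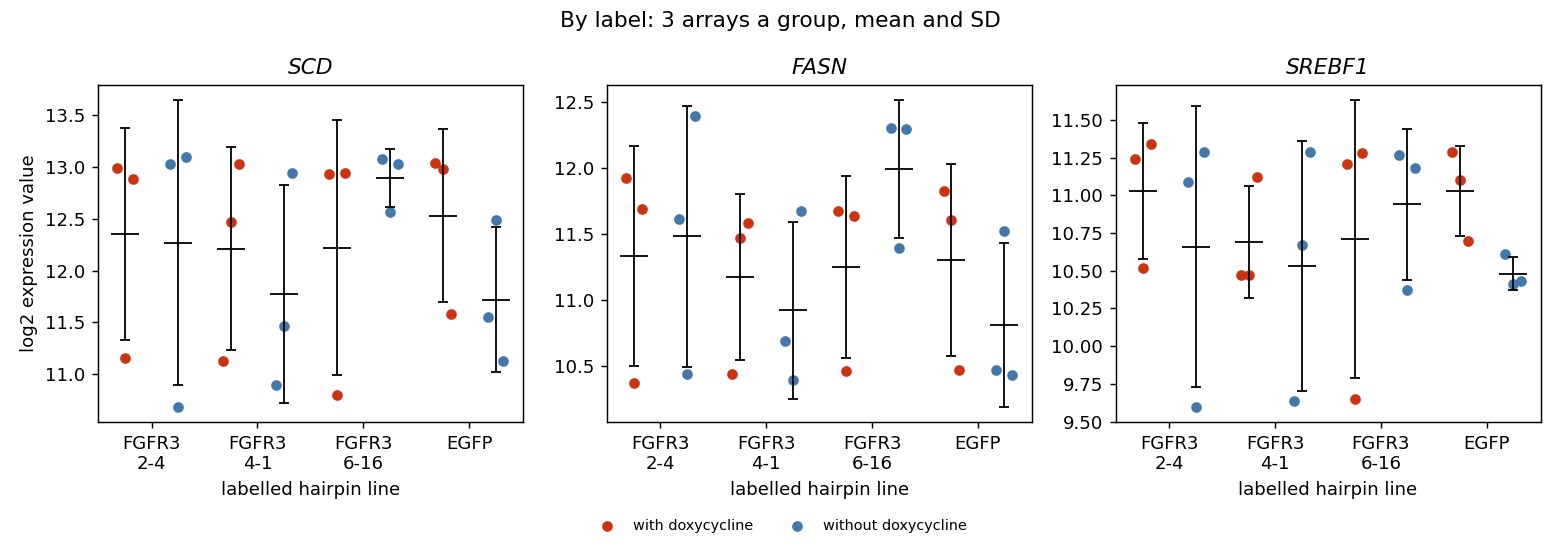
Log2 expression values of SCD, FASN and SREBF1 by labelled hairpin line, with doxycycline (red) left of without (blue). Points are arrays and bars the mean and SD of 3 arrays. For SCD and FASN the groups with and without doxycycline overlap in each line.

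By TACC3 level, all 9 members had a lower median on the 9 arrays below the cut than on the 15 above it, as did 53.6% of all genes. For 6 members, SCD, FASN, ACACA, ACLY, ACSS2 and ME1, every array below the cut lay under every array above it. Of all genes, 3.09% were lower below the cut without overlap and 2.9% were higher. The median difference was -0.79 on the log2 scale for the members and -0.008 over all genes. In these bulk RNA samples, fewer cells that express a gene and less RNA per cell cannot be told apart.

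The enzymes that supply acetyl-CoA were lower below the cut. ACSS2 ranged from 9.51 to 9.78 with a median of 9.62 on the arrays below, against 10.06 to 10.82 with a median of 10.63 on those above. The arrays did not overlap, and the difference of medians was -1.01, so that the level above the cut was 2.01-fold that below. ACLY ranged from 11.0 to 11.39 (median 11.16) below the cut, against 11.67 to 12.20 (median 11.89) above it, a difference of -0.73. Its arrays below the cut also stood apart from all those above.

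ME1, the NADPH-producing malic enzyme, ranged from 7.57 to 7.85 (median 7.66) below the cut, against 8.30 to 9.03 (median 8.89) above it. Its difference of medians was -1.23, the same as that of FASN. FASN ranged from 10.37 to 10.69 (median 10.44) below the cut, against 11.39 to 12.39 (median 11.67) above it. FASN levels below the cut were close together, with an SD of 0.09 over 9 arrays, whereas those above it had an SD of 0.32 over 15 arrays. ACACA, the enzyme of the committed step, differed less, with 9.62 to 9.88 (median 9.72) below the cut against 9.98 to 10.42 (median 10.22) above it. Its difference was -0.50, and no array of one side reached the other.

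SCD, the stearoyl-CoA desaturase, had the widest difference of the members. It ranged from 10.69 to 11.58 (median 11.13) below the cut, against 12.47 to 13.09 (median 12.98) above it. The difference of -1.85 means that the level above the cut was 3.61-fold that below. Only 8 genes, SCD included, had a difference this low or lower among all 19775. A median at least 1 log2 unit lower below the cut was found for 4 members, SCD, FASN, ME1 and ACSS2, and for 0.253% of all genes.

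For 3 members the arrays overlapped. ELOVL6, the palmitate elongase, ranged from 8.42 to 8.90 (median 8.58) below the cut, against 8.71 to 9.48 (median 9.37) above it, where 14 of 15 arrays exceeded all those below. SREBF1 ranged from 9.60 to 10.70 (median 10.47) below the cut, against 10.37 to 11.34 (median 11.21) above it, where 12 of 15 did so. FADS2, the delta-6 desaturase, was dim and differed little, at 6.45 to 6.91 (median 6.64) below the cut, against 6.52 to 7.06 (median 6.83) above it. Its mean over the 24 arrays, 6.76, exceeded that of 28.1% of all genes. The 3 probe sets annotated jointly to FADS1 and MIR1908 had differences of medians of -0.90, -0.61 and -0.49, with overlap on each. The annotation does not assign them to FADS1 alone, so they were not counted as a member.

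The array's degradation controls differed by TACC3 level too. The log2 difference of 3' minus 5' probe sets was 0.28 to 0.42 for GAPDH and 0.79 to 1.17 for ACTB below the cut, against 0.20 to 0.29 and 0.70 to 0.97 above it. On the arrays below the cut these differences correlated with the mean of the members at -0.69 for ACTB and -0.68 for GAPDH. Above the cut the correlations were -0.02 for ACTB and -0.34 for GAPDH. The arrays of each side fall into sets described below, so these correlations do not tell variation within a set from differences between sets. The part of RNA degradation in the members' values was not tested. Of markers of other cell types, 0 of 8 fibroblast, 0 of 8 leukocyte and 0 of 5 adipocyte genes differed without overlap. Of all genes, 3.09% were lower and 2.9% higher without overlap. With lists this short, 0 lies near those shares and cannot show whether cell types differed. The median was lower below the cut for 4 fibroblast, 7 leukocyte and 3 adipocyte genes, beside 53.6% of all genes. The mean level of the fibroblast list was 8.09 to 8.24 below the cut and 8.06 to 8.21 above it, though its member LUM averaged 13.18 over all arrays. That of the leukocyte list was 6.67 to 6.96 and 6.63 to 6.95, and that of the adipocyte list 6.38 to 6.56 and 6.35 to 6.63. Of 11 epithelial genes, 1 was lower and 2 were higher below the cut without overlap, beside the same shares of all genes.

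**Figure D2:**
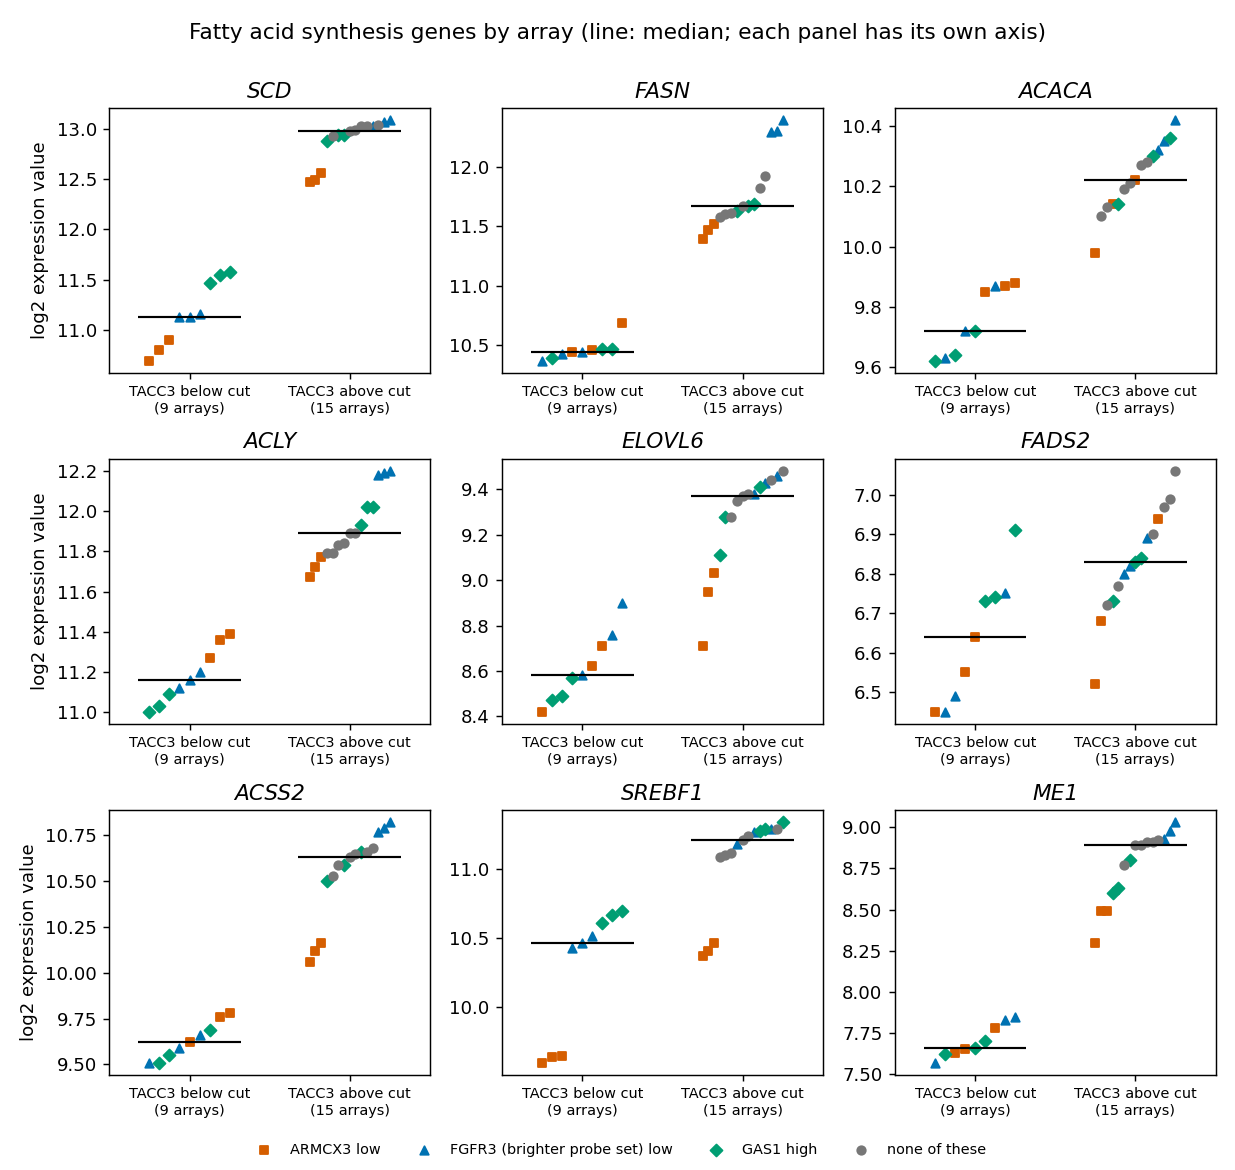
Log2 expression values of the 9 members on the 9 arrays with TACC3 below 11.6 (left) and the 15 above it (right), each panel on its own axis. Points are arrays, ordered by value within a side, with symbols for the marker sets described in the text, and lines are medians. SCD, FASN, ACACA, ACLY, ACSS2 and ME1 separate completely, and ELOVL6, FADS2 and SREBF1 overlap.

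**Figure D3:**
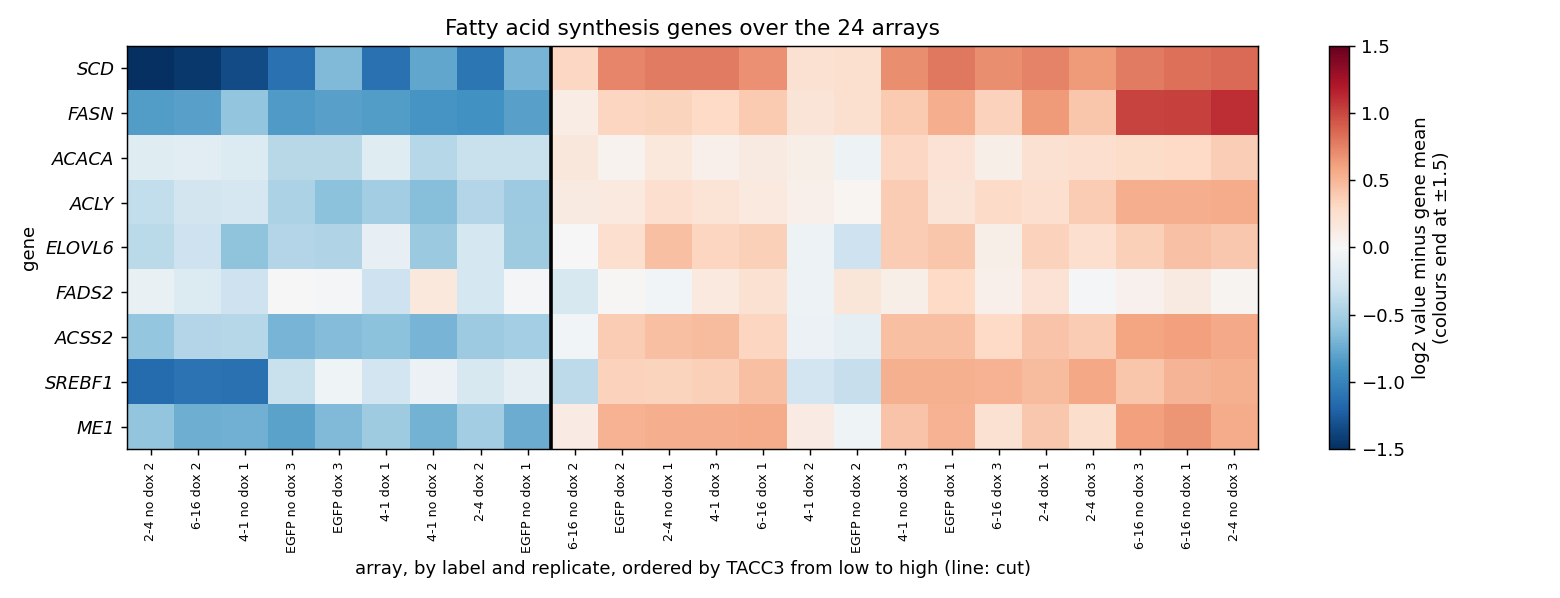
Members (rows) on the 24 arrays (columns) in order of TACC3 level from low to high, named by label and replicate. Colour gives the log2 value minus the mean of the gene, and the vertical line is the cut. Arrays left of the line carry labels of all 4 lines, with and without doxycycline.

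Several members were measured by more than 1 probe set, 22 in all for the 9 genes. All 22 had a lower median below the cut, and 13 did so without overlap, beside 53.3% and 2.18% of all 54675 probe sets. Probe sets of 1 gene share its transcripts. The 4 SCD probe sets gave differences of -1.85, -1.59, -1.89 and -1.81, and the 3 for ACLY gave -0.73, -0.81 and -0.64. Probe sets of 2 genes disagreed: the dimmer FASN probe set (mean 6.44) had -0.03, and 1 dim ME1 probe set (mean 7.04) had -0.02 where the other ME1 probe sets had -1.23 and -1.25. The dimmer SREBF1 probe set (mean 7.84) had a difference of -0.26 but no overlap, at 7.40 to 7.72 below the cut against 7.75 to 8.26 above it. The dimmer FGFR3 probe set ran from 8.71 to 9.88 below the cut and 10.34 to 11.20 above it, so a level between them divides the arrays as the TACC3 cut does. On the brighter one the sides overlapped, at 11.13 to 12.20 and 11.36 to 12.34.

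Some arrays stood apart on single genes, each of which marked 6 arrays, 3 below and 3 above the TACC3 cut. ARMCX3 was at 4.25 to 4.93 on 6 arrays and at 9.45 or more on the rest. GAS1 was at 8.52 to 9.47 on another 6 and at 6.51 or less on the rest. The brighter FGFR3 probe set was at 11.13 to 11.43 on a further 6 and at 11.83 or more on the rest, and this marker was chosen after the values were seen. The remaining 6 arrays bore none of these marks and all lay above the cut. Each marked set, and the unmarked one, held arrays labelled with all 4 lines, with and without doxycycline. These marks thus cut across the labels.

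Within each marked set all 9 members had a lower median below the cut, as did 47.1% of all genes in the ARMCX3 set, 53.9% in the FGFR3 set and 47.1% in the GAS1 set. Without overlap were 8 of 9 members among the arrays low in ARMCX3, 9 of 9 among those low on the brighter FGFR3 probe set and 8 of 9 among those high in GAS1, beside 14.2%, 20.9% and 19.2% of all genes that were lower in these sets without overlap. The medians of the members' differences were -0.36, -1.03 and -0.97. FADS2 was the member that overlapped in the ARMCX3 and GAS1 sets, and ELOVL6 in the ARMCX3 set was tied to 2 decimals. These sets share arrays with the comparison over all 24 arrays and are no separate evidence.

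SREBF1 separated in each marked set although it overlapped over all arrays. Among the arrays low in ARMCX3 it had 9.60, 9.64 and 9.65 below the cut against 10.37, 10.41 and 10.47 above it. Among those low on the brighter FGFR3 probe set it had 10.43, 10.47 and 10.52 below the cut against 11.18, 11.27 and 11.29 above it. Those high in GAS1 had 10.61, 10.67 and 10.70 against 11.28, 11.29 and 11.34. The differences of medians were alike, -0.77, -0.80 and -0.63, and the overlap came from the arrays low in ARMCX3, which had the lowest SREBF1 values on both sides.

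FASN and ACLY differed more between the sets. On arrays low on the brighter FGFR3 probe set, FASN had 10.37, 10.43 and 10.44 below the cut against 12.29, 12.30 and 12.39 above it, a difference of -1.86. It had 10.44, 10.46 and 10.69 against 11.39, 11.47 and 11.52 on arrays low in ARMCX3, a difference of -1.01. The 3 values above 12 were the highest of all 24 arrays for FASN, whereas below the cut all 3 sets reached similar levels. ACLY had differences of -1.03 on the arrays low on the brighter FGFR3 probe set, -0.99 on those high in GAS1 and -0.36 on those low in ARMCX3. On the arrays low in ARMCX3 it had 11.27, 11.36 and 11.39 below the cut against 11.67, 11.72 and 11.77 above it.

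On arrays low in ARMCX3 the acetate enzyme ACSS2 had 9.62, 9.76 and 9.78 below the cut against 10.06, 10.12 and 10.16 above it. Its difference of -0.36 there stood beside -1.20 and -1.05 in the FGFR3 and GAS1 sets. The 3 arrays low in ARMCX3 and above the cut had the lowest ACSS2, SREBF1 and SCD values of the 15 above it, with SCD at 12.47, 12.49 and 12.56. ELOVL6 had a difference of -0.33 there, where the highest value below and the lowest above were both 8.71, so that its separation rests on digits beyond those given, against -0.67 and -0.79 in the FGFR3 and GAS1 sets. Differences between the marked sets were not tested.

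**Figure D4:**
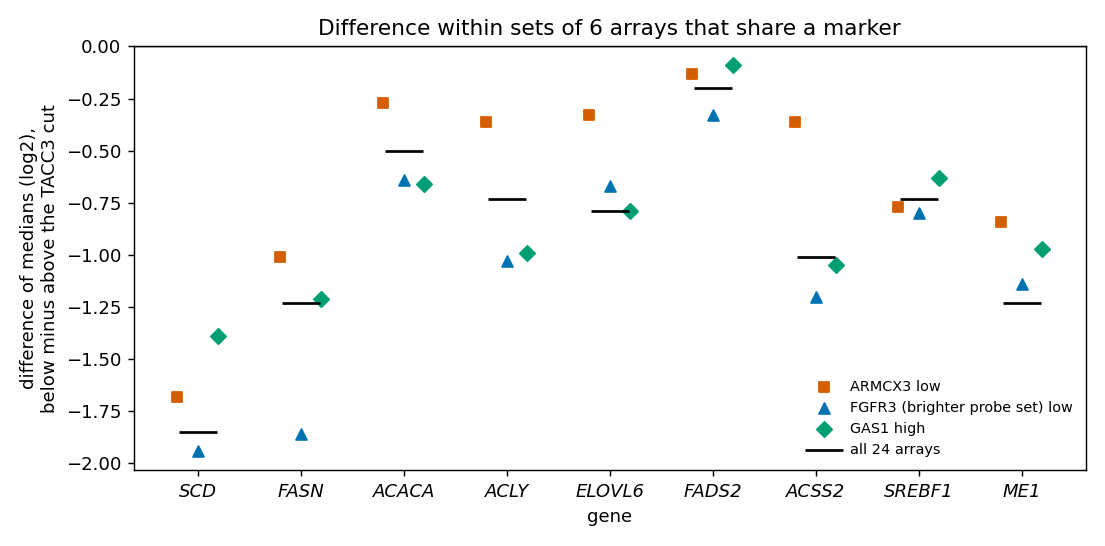
Difference of median log2 values, below minus above the TACC3 cut, for each member within the 6 arrays low in ARMCX3, the 6 low on the brighter FGFR3 probe set and the 6 high in GAS1. Black bars give the difference over all 24 arrays. All 27 symbols lie below 0.

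Other genes of lipid synthesis were read from a list of 53, of which 44 were measured. Below the TACC3 cut 9 of them were lower without overlap and 0 were higher without overlap, with a median difference of -0.09 over the list. Of all genes 3.09% were lower and 2.9% higher without overlap. INSIG1, which holds SREBP precursors in the endoplasmic reticulum, ranged from 10.02 to 10.51 below the cut against 11.10 to 11.99 above it, a difference of -1.60. SQLE, squalene epoxidase of cholesterol synthesis, had -1.52 without overlap. FABP5, a fatty acid binding protein, had -1.56 but ranged from 4.85 to 8.31 below the cut and 4.91 to 9.17 above it, so its arrays overlapped.

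ELOVL5, an elongase of polyunsaturated chains, ranged from 9.22 to 9.67 below the cut against 9.95 to 10.71 above it, a difference of -1.19. SLC25A1, the mitochondrial citrate carrier that feeds ACLY, had -0.52 without overlap, and HSD17B12, an enzyme of the elongation cycle, had -0.42 without overlap. SREBF2, the sterol-responsive relative of SREBF1, had -0.30 without overlap. MID1IP1, an activator of acetyl-CoA carboxylase, had -0.25 without overlap, and the others of the 9 were LSS at -0.86 and PNPLA3 at -0.49. ELOVL5, LSS, SLC25A1, PNPLA3, HSD17B12, SREBF2 and MID1IP1 were named after their values were seen.

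At the other end of the list INSIG2, a relative of INSIG1, had a difference of 0.39, ACSS1, the mitochondrial acetate enzyme, had 0.21, and AGPAT2, an acyltransferase of phosphatidic acid synthesis, had 0.20. Arrays overlapped for each of these.

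**Figure D5:**
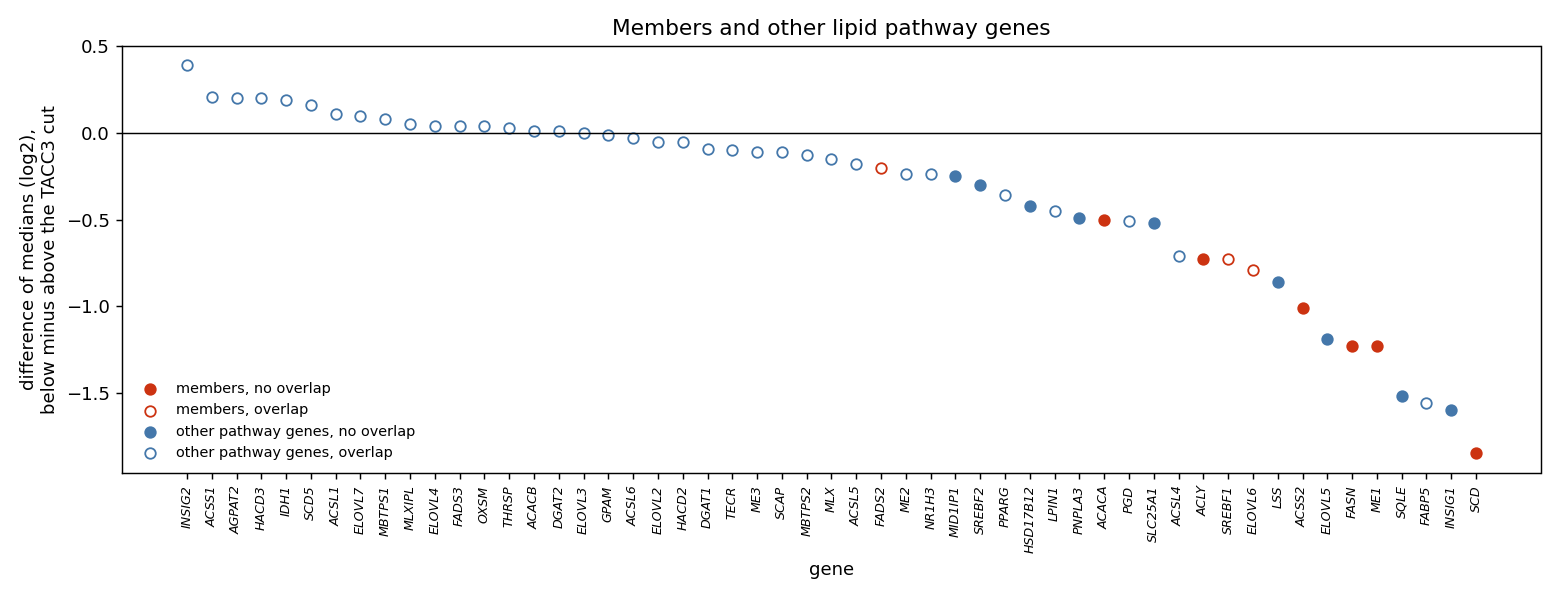
Difference of median log2 values, below minus above the TACC3 cut, for the 9 members (red) and 44 other lipid pathway genes (blue), in order from high to low. Filled symbols mark genes whose arrays did not overlap. SCD has the lowest value at -1.85 and INSIG2 the highest at 0.39.

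The members followed each other across arrays to different extents. The correlation of each member with the mean of the other 8, over 24 arrays that fall into separate sets, was 0.98 for ME1, 0.97 for ACSS2, 0.96 for SCD and 0.95 for FASN, and was lowest for SREBF1 at 0.81 and FADS2 at 0.60. It describes these arrays, which share a cell line and a normalization, and mostly repeats the division by TACC3 level. Of all other genes, the 6 most like the members' mean were FGFBP1, ENO1, INSIG1, SNRPF, ELOVL5 and LSS. FGFBP1 is a carrier of FGFs, ENO1 a glycolytic enzyme and SNRPF a spliceosomal protein. Over the 24 arrays the Pearson correlations of the 6 genes were 0.98 to 0.99. In the order first given, they were 0.19, 0.85, 0.76, 0.18, 0.85 and -0.63 within the 9 arrays below the cut. Within the 15 arrays above it they were 0.98, 0.93, 0.90, 0.94, 0.91 and 0.92. The arrays of each side fall into separate sets, so these correlations do not tell variation within a set from differences between sets. Some rest on a narrow range: below the cut LSS ran from 11.32 to 11.47 and FGFBP1 from 8.84 to 9.15.

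The genes most opposed to the members were UPK1A, a urothelial plaque protein, ZFP36L1, an mRNA decay factor, and DHRS2, a short-chain dehydrogenase, each at -0.98. In this order, the correlations were -0.87, -0.68 and -0.83 within the arrays below the cut and -0.95, -0.84 and -0.92 within those above it. Here too, variation within a set and differences between sets are not told apart. UPK1A ranged from 12.08 to 12.97 below the cut against 10.01 to 11.36 above it, a difference of 1.72. DHRS2 had a difference of 0.94 and ZFP36L1 one of 0.69, both without overlap.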

How the data were processed

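RNA of 24 samples of RT112 cells was measured on Affymetrix 3' arrays from 3 µg total RNA each. The authors deposited log2 expression values of 54675 probe sets, and the submitters' processing notes name RMA and affy, with no version. RMA corrects background, quantile-normalizes arrays and summarises probes, which removes shifts shared by most genes. Array medians ran from 6.98 to 7.08, and 0 pairs of arrays held identical values.

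Probe sets with exactly 1 symbol in GEO's platform annotation were used, 41097 in all, while 1801 had several and 11777 none. By Entrez identifier 41043 matched RefSeq genes of GRCh38.p14, and 0 symbols changed. Without a filter, 1 probe set per gene by highest mean gave 19775 genes. Coordinates come only from the RefSeq promoter table.

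Groups came from sample titles. One limma model (version 3.58.1, R 4.3.3) over all genes held 8 group means, with 16 residual and 3.13 prior degrees of freedom. P-values were adjusted by Benjamini-Hochberg over the 19775 genes, with a threshold of 0.05. The limma step was tested on simulated data. Members, lists, the TACC3 cut and named genes were chosen with earlier results of these data known. Named genes are the members, FGFR3 and TACC3, the 3 lipid pathway genes at each end of the difference by TACC3 level, and the 6 most like and 3 most opposed genes. Alternatives were other probe set rules, a filter at a mean of 6, other scalings, array weights, a replicate block, each line alone and leaving out each array.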

Additional observations from a re-analysis of the deposited data

How the results depend on the processing

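Over 184 recomputed counts of members called by label, 0 exceeded 0, and over 642 recomputed member values by label the smallest limma adjusted p was 0.125. All genes called in the 6-16 line numbered 0 with all arrays alike, 1291 with array weights, 1 with the replicate block and 1 with only that line's arrays. Whether replicate numbers pair the arrays was not tested. Deviations of same-numbered arrays within a line correlated at -0.53 to 0.61, over 0.1 in 9 of 12 pairs. The replicate block gave 0 members called in every comparison and changed no member's call.

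Signs turned for SCD in the 2-4 line, to -0.04 with the mean of all probe sets and -0.27 with array weights, for SREBF1 in the 6-16 line, to 0.05 with array weights, and for FADS2 in the difference of line changes, to 0 when rounded with renewed quantile normalization or array weights. With 1 array left out, counts of members called stayed at 0. SCD then ran from -0.71 to 0.67 in the 2-4 line and -1.02 to 0.04 in 6-16, FASN from -0.67 to 0.32 in 2-4 and -0.02 to 0.63 in 4-1, SREBF1 from -0.16 to 0.69 in 2-4, -0.29 to 0.53 in 4-1 and -0.51 to 0.31 in 6-16, and FADS2 from -0.10 to 0.06 in the difference of line changes, where ACACA ran from -0.47 to -0.16, ACLY from -0.62 to -0.22, ELOVL6 from -0.75 to -0.31 and SREBF1 from -0.62 to -0.27. On the dimmer FGFR3 probe set, added after seeing the data, the FGFR3 change was 0.29 in 4-1 and -0.83 in 6-16, against -0.24 and 0.42 on the brighter one.

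By TACC3 level, all 90 recomputed differences of medians lay below 0. With the mean of all probe sets, renewed quantile normalization or centring, 6 members were lower without overlap on all 24 arrays, where 3.01%, 3.91% and 2.54% of genes were lower without overlap. Within single lines 9 members did not overlap in 2-4 (2 arrays below, 4 above), 7 in 4-1 and 8 in EGFP (3 and 3 each), beside 14.9%, 11.3% and 15.7% of genes, and 6-16 had too few arrays below. Leaving out the arrays low in ARMCX3, low on the brighter FGFR3 probe set or high in GAS1, chosen after seeing the data, gave 8, 7 and 6 members beside 8.03%, 3.85% and 3.95% of genes. A cut at the largest gap in TACC3 values left 3 arrays below and 21 above, and 2 members, SCD and SREBF1, had no overlap beside 4.06% of genes. All 3 arrays below that cut were low in ARMCX3, so there a low TACC3 level and this mark cannot be told apart. Differences moved by over 1.5 times as follows. SREBF1 (-0.73) had -1.46 at that cut, -1.21 in the 2-4 line and -1.11 without the GAS1 set. ACACA (-0.50) had -0.28 at that cut and -0.29 in the 4-1 line, and ACLY (-0.73) had -0.43 at that cut. FADS2 (-0.20) had -0.39 in the 4-1 line, -0.10 without the ARMCX3 set and -0.33 without the GAS1 set. With the mean of all probe sets FASN had -0.62 and ME1 -0.78, against -1.23 each. Correlations among members within a side were not run, since each side falls into sets of 3 or 6 arrays that stand apart. The number of arrays limits every comparison by label. Labelled groups also mixed high and low arrays, with an SD of 0.98 for SCD within groups and 0.90 over all 24 arrays. The targeted gene was not called lower in any line, and whether labels and values were matched correctly was not tested. Calls of 0 by label therefore do not show that the members are independent of FGFR3.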
